A study of Bubalus bubalis with 6 samples.

Results

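H/ACA box small nucleolar RNAs (snoRNAs) were followed in buffalo muscle stem cells (MuSCs) in growth medium (GM samples) and in differentiation medium (DM samples). The set is every gene of the deposited gene table typed as snoRNA whose symbol starts with SNORA, with each copy kept as its own gene. It holds 409 of the 846 snoRNA genes and of the 24616 genes listed, under 72 symbols. No counts fell on 229 of them, 76 had 1 to 9 counts over the 6 samples, and the 104 with at least 10 counts are described gene by gene. The cells were primary MuSCs of water buffalo (Bubalus bubalis) from fetal longissimus muscle. The 3 GM samples were proliferating cells in DMEM with fetal bovine serum, and the 3 DM samples were cells moved to DMEM with horse serum, in which they fuse into myotubes. All 6 libraries were polyA-selected, and the labels do not say whether each sample was a culture of its own, so the p-values measure only the spread between these samples.

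An H/ACA snoRNA folds into hairpins followed by an H box and an ACA box, and pairs with a target RNA so that the enzyme DKC1 can turn a chosen uridine into pseudouridine, mostly in ribosomal RNA. Each works in a particle with the proteins DKC1, GAR1, NHP2 and NOP10. In mammals most are cut out of introns of host genes, many of which encode ribosomal proteins, translation factors or nucleolar proteins. The mature RNA carries no polyA tail, so a polyA-selected library holds few of these molecules, and reads of the mature snoRNA and of unspliced host RNA cannot be told apart in these counts.

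The gene counts were 35615864 to 40305237 per sample, and H/ACA genes took 11293 counts in all. DM replicate 3 stood apart from the other DM samples: the chi-square per degree of freedom between replicates was 37.9 to 38.5 with it and 11.0 between DM replicates 1 and 2, against 5.84 to 9.88 between GM samples. All 9 muscle lineage markers looked for were detected, among them MYF5, MYOG and MYH3 (log2 fold changes -2.70, 1.66 and 2.58). Of the 9, 5 were called higher in DM samples and 1 (MYF5) lower, against 15.0% and 10.3% of all tested genes. All 9 markers of other cells had counts. CPM are counts scaled to library sizes that edgeR's trimmed mean of M-values, TMM, had normalized. Without the fibroblast genes COL1A1 and PDGFRA these markers summed to 4.93 to 7.02 CPM in GM samples and 2.59 to 3.85 CPM in DM samples. Most of this was CD68 (macrophages), at 5.29 CPM in GM samples and 2.59 CPM in DM samples (log2 fold change -1.04, called lower). Of these 7 markers, 2 were called lower, CD68 and CDH5 (endothelium), and 0 higher. PTPRC (blood cells) and EPCAM (epithelium) had 0 to 2 counts per sample. With COL1A1 and PDGFRA the sum was 15772 to 15962 CPM in GM samples and 43178 to 48470 CPM in DM samples. Nearly all of it was COL1A1 (log2 fold change 1.54, called higher). Whether a change in the cell mix had a part in the snoRNA values was not tested, and in bulk samples fewer cells of a type and less RNA per cell cannot be told apart.

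The summed H/ACA signal was lower in all DM samples. H/ACA genes had 2558, 2620 and 2544 counts in the GM samples and 1078, 1137 and 1356 in the DM samples. The groups did not overlap. In CPM the sum was 63.9 ± 2.83 in GM samples and 33.2 ± 3.01 in DM samples (SD, n = 3 each), 1.92-fold higher in GM samples. The share of all gene counts was 0.00661% ± 0.000289 in GM samples and 0.00321% ± 0.000296 in DM samples (SD, n = 3 each; exact permutation test, two-sided, p = 0.1, the smallest that 3 against 3 samples allow). An H/ACA gene with at least 1 count was found 130, 134 and 130 times in GM samples and 110, 117 and 127 times in DM samples. C/D box snoRNAs (symbols starting with SNORD), which guide ribose methylation, summed to 118 ± 1.21 CPM in GM samples and 57.0 ± 2.12 CPM in DM samples. H/ACA counts made up 35.0% ± 1.05 of the H/ACA and C/D counts together in GM samples and 36.8% ± 2.79 in DM samples, so a shift between the snoRNA classes was not resolved (exact permutation test, two-sided, p = 0.7).

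**Figure D1:**
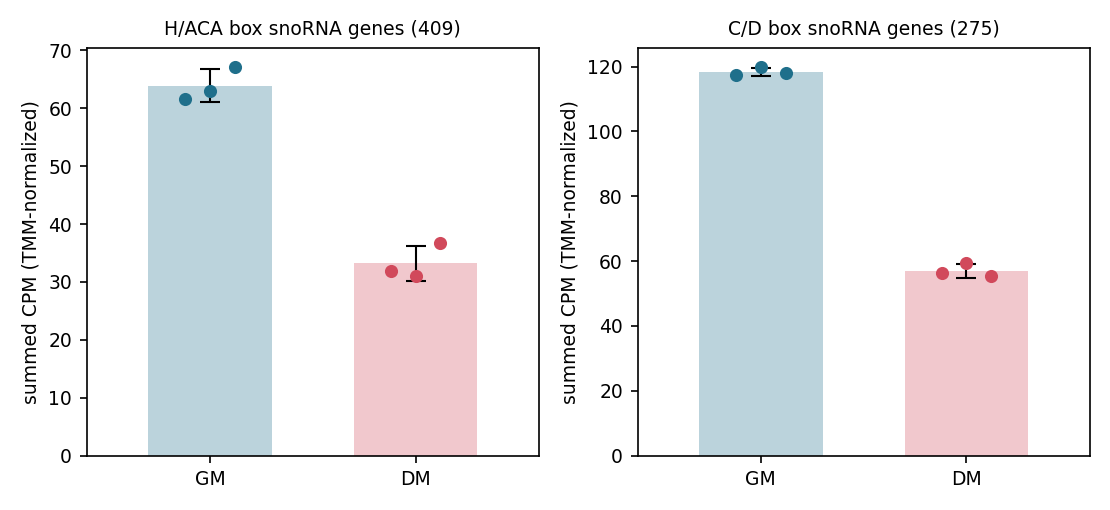
Summed TMM-normalized CPM of the 409 H/ACA box (left) and 275 C/D box (right) snoRNA genes in GM and DM samples. Points are samples, bars are means and error bars are the SD (n = 3). Each GM point lies above each DM point in both classes.

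Gene by gene, the change was mostly downward. In an edgeR quasi-likelihood fit over 15576 genes with at least 10 counts, a gene was called if its log2 fold change was beyond 1 in either direction with a Benjamini-Hochberg adjusted p below 0.05. Of the 104 H/ACA genes, 30 were lower and 2 were higher in DM samples, against 10.3% of all tested genes called lower and 15.0% called higher. The log2 fold change was below 0 for 89 of the 104 and above 0 for 15, with a median of -1.03 and quartiles of -1.53 and -0.35, while the median over all tested genes was 0.03. Counts did not overlap between groups, once scaled to CPM, for 50 H/ACA genes lower in DM samples and for 3 higher, against 34.3% and 34.5% of all genes. Of the 30 genes that fell, 26 kept more than 3 counts over the DM samples. There was no overlap between groups for 29 of the 30, SNORA38 being the exception. The calls were made on these same samples, so this separation is no further support for them. Without DM replicate 3 the calls were 28 lower and 2 higher. DESeq2 called 21 of the 104 lower, against 9.5% of all genes, and 0 higher (1 at an unadjusted p below 0.05). In the ncRNA table, which holds the same counts for these genes and was fitted alone, 17 were called lower, against 9.49% of 822 ncRNAs.

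**Figure D2:**
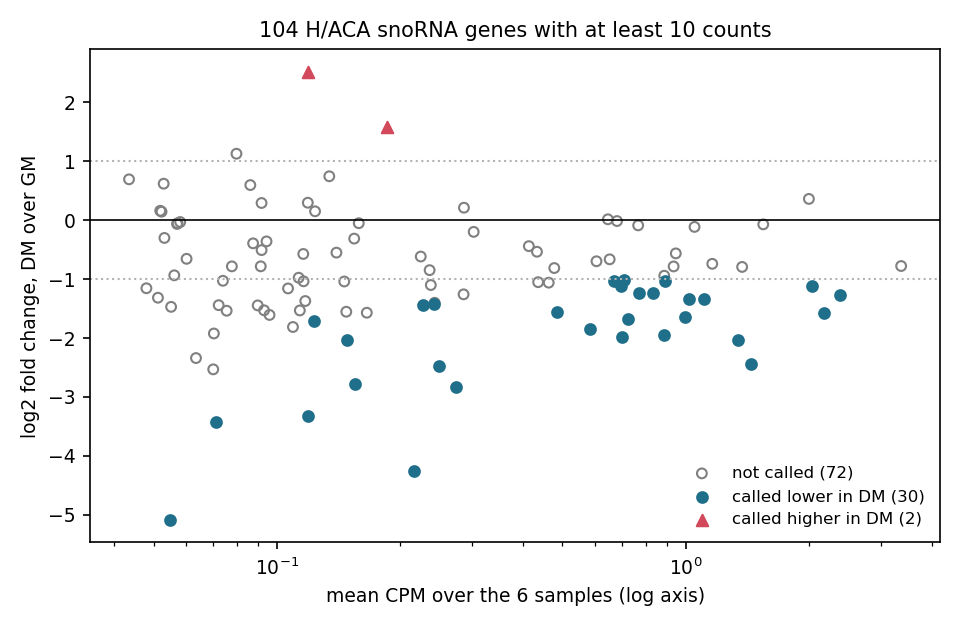
Log2 fold change (DM over GM) against mean TMM-normalized CPM on a log axis for the 104 tested H/ACA genes. Filled circles are the 30 genes called lower, triangles the 2 called higher and open circles the 72 not called, and dotted lines mark log2 fold changes of -1 and 1. The median is -1.03, and most points lie below 0 along the whole range of levels.

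The 10 genes with the highest mean CPM held 38.8% of H/ACA counts, and 5 of them were called, all lower in DM samples. SNORA17 (chr11:104184905-104185036; the tables name no genome build) had the highest level per length, with a mean RPKM (the count scaled by gene length and library size) of 33.4 in GM samples and 18.1 in DM samples. Its counts were 148, 192 and 174 in GM samples and 69, 46 and 153 in DM samples. DM replicate 3 was close to the GM samples while the other DM samples were far below them. SNORA17, which lies in the noncoding host SNHG7 in human, was outside every listed gene here, and its log2 fold change of -0.78 did not pass (SE 0.35, adjusted p = 0.077). Without DM replicate 3 it was -1.36 and passed (adjusted p = 8.9e-06).

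SNORA51 lies in NOP56 (chr13:52986833-52986968), which encodes a core protein of the C/D box particle. It had 86, 93 and 115 counts in the GM samples and 13, 20 and 15 in the DM samples. The groups were far apart, and the fall of 2.45 on the log2 scale was the largest among H/ACA genes with at least 100 counts (SE 0.29, adjusted p = 3.3e-05). SNORA24 (chr6:8023996-8024126), in the noncoding host SNHG8 in human and outside listed genes here, had 70, 109 and 83 counts in the GM samples and 15, 24 and 18 in the DM samples (log2 fold change -2.02, SE 0.30, adjusted p = 0.000157).

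Not all abundant members fell. SNORA20 lies in TCP1 (chr9:97483110-97483239), a subunit of the cytosolic chaperonin. It had 67, 63 and 81 counts in the GM samples and 64, 72 and 107 in the DM samples. The groups overlapped in counts and in CPM, and the log2 fold change of 0.36, the largest rise in the class with at least 100 counts, did not pass (SE 0.26, adjusted p = 0.246). SNORA11 on chromosome X (chrX:95552022-95552148) had 54, 76 and 62 counts against 43, 51 and 69, again with overlap (log2 fold change -0.07, SE 0.26, adjusted p = 0.834). Next after SNORA17 in mean RPKM came SNORA20 and SNORA11 in DM samples, at 16.8 and 11.5, and SNORA8 and SNORA1 in GM samples, at 25.5 and 25.3. Differences between neighbours in these orders were not tested.

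**Figure D3:**
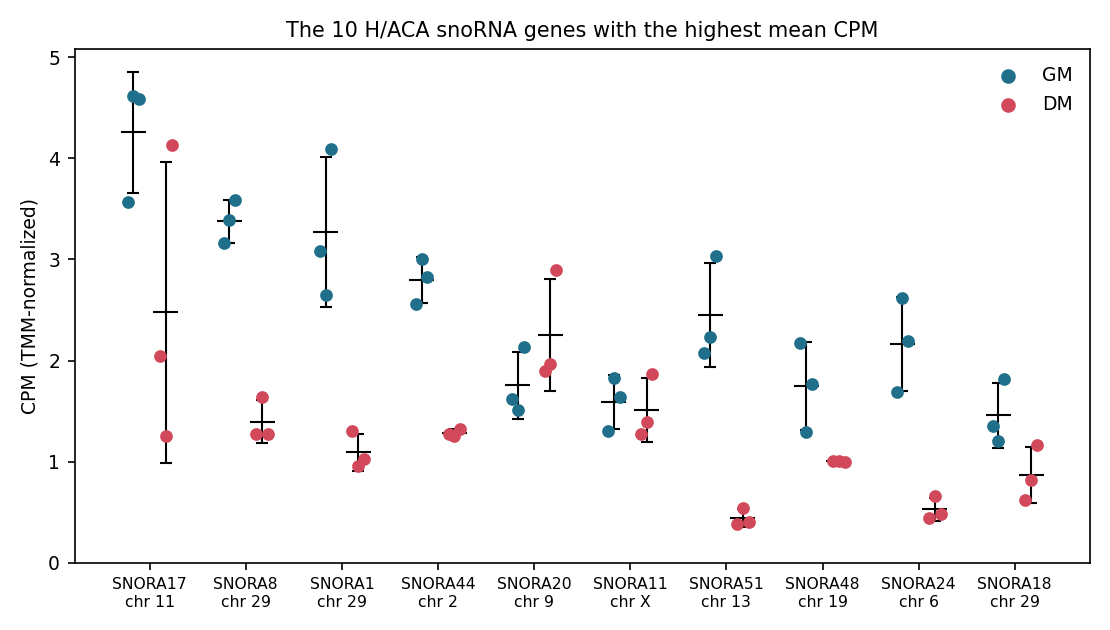
TMM-normalized CPM of the 10 H/ACA genes with the highest mean CPM, by sample, with the chromosome under each symbol. Points are samples, horizontal lines are means and error bars are the SD (n = 3). GM and DM points are apart for SNORA8, SNORA1, SNORA44, SNORA51, SNORA48, SNORA24 and SNORA18, and mix for SNORA17, SNORA20 and SNORA11.

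The largest falls were mostly of sparsely counted genes. SNORA26 had 4, 2 and 7 counts in GM samples and 0 in each DM sample. With the DM group set to a floor of 3 counts it was 3.85-fold higher in GM samples, a value that leaves out counting error in the GM counts. SNORA26 was not called by DESeq2 (adjusted p = 0.054). Without GM replicate 1 or GM replicate 3 it was below the minimum of 10 counts and not tested. A 3.85-fold fall also lies below the median of the 104 genes, so with SNORA26 at that value the median necessarily stays at -1.03. SNORA50 (chr19:49114969-49115103) had 17, 16 and 17 counts against 0, 1 and 1. This is a ratio of 22.2 of GM to DM counts per TMM-normalized library, with a 95% Clopper-Pearson interval of 5.83 to 188 that covers counting error only. SNORA38 on chromosome 5, in the nucleoporin gene NUP107 (log2 fold change -1.03, called lower), had 10, 1 and 5 counts against 1, 0 and 0, a ratio of 14.2 (2.21 to 595), and lost its call by DESeq2 (adjusted p = 0.0799) and without GM replicate 3 or any DM replicate, while without GM replicate 1 it was below the minimum and not tested. SNORA74 on chromosome 7, also known as U19, had 11, 10 and 12 counts against 1, 1 and 2 (log2 fold change -2.77, SE 0.67, adjusted p = 0.00401). SNORA65 in ENSBTAG00000006963 had 16, 13 and 22 counts against 1, 2 and 5 (log2 fold change -2.47, SE 0.63, adjusted p = 0.00588), within a host whose own log2 fold change was 0.76.

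SNORA73, or U17, acts in the cleavage of the ribosomal RNA precursor and not as a pseudouridine guide. Of its 5 listed copies 4 were tested, and 3 of them, neighbours on chromosome 2 outside listed genes, were each called lower. The copy at chr2:125499760-125499963 had 30, 46 and 33 counts against 15, 16 and 16 (log2 fold change -1.03, SE 0.34, adjusted p = 0.0224). The copy at chr2:125500693-125500896 had 12, 21 and 8 against 5, 5 and 3 (log2 fold change -1.45, SE 0.58, adjusted p = 0.0493), and that at chr2:125501622-125501825 had 13, 6 and 10 against 2, 3 and 1 (log2 fold change -2.04, SE 0.69, adjusted p = 0.0248). None of these 3 copies overlapped between groups. The other tested copy, on chromosome 19 in TBCD, a tubulin cofactor gene, had 6, 3 and 9 counts against 3, 4 and 1, with overlap, and was not called (log2 fold change -0.98, SE 0.77, adjusted p = 0.293). All 3 called copies lost their call by DESeq2, and those at chr2:125500693-125500896 and chr2:125501622-125501825 also with a replicate block. Each lost it with some library left out as well: the first without GM replicate 2, GM replicate 3 or DM replicate 2, the second when any library except GM replicate 3 was left out, and the third without GM replicate 1, GM replicate 3, DM replicate 1 or DM replicate 3. The counting may divide reads between copies of like sequence, so single copies are uncertain.

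Of a row of 6 H/ACA genes beside TAF1D, 4 fell. TAF1D encodes a subunit of the factor that starts transcription of ribosomal RNA genes by RNA polymerase I, and its human introns hold the same snoRNAs. Here the 6 genes lie on its strand within 4593 bases, the first 278 bases past the end of TAF1D as listed (chr29:1056627-1062580). Together they had 439, 434 and 446 counts in the GM samples and 144, 159 and 166 in the DM samples, or 10.9 ± 0.728 and 4.36 ± 0.113 CPM (SD, n = 3 each), 2.50-fold higher in GM samples. The groups did not overlap (exact permutation test, two-sided, p = 0.1, the smallest possible). This row was picked with the values of its genes known, so the sum is no further support for their calls.

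All 6 had log2 fold changes below 0. SNORA8 (chr29:1065601-1065737) had 131, 141 and 136 counts against 43, 60 and 47 (log2 fold change -1.27, SE 0.21, adjusted p = 0.000362). SNORA1 (chr29:1066222-1066355) had 128, 110 and 155 counts against 44, 35 and 38 (log2 fold change -1.58, SE 0.25, adjusted p = 0.000283). The DM values of both genes lay far below all GM values. SNORA40, nearest to TAF1D, had 69, 64 and 45 counts against 25, 9 and 28 (log2 fold change -1.33, adjusted p = 0.0142), with the call lost without GM replicate 1 or DM replicate 2. SNORA32 had 46, 50 and 38 counts against 11, 22 and 4 (log2 fold change -1.67, adjusted p = 0.0118). The other two did not pass: SNORA18 had 56, 50 and 69 counts against 21, 30 and 43 (log2 fold change -0.74, adjusted p = 0.0668), and SNORA25 had 9, 19 and 3 against 0, 3 and 6 (log2 fold change -1.57, adjusted p = 0.151). TAF1D itself had 1868, 1723 and 1745 counts against 1111, 1443 and 1309, a smaller log2 fold change of -0.30 (SE 0.08, adjusted p = 0.00961). In the RefSeq annotation of buffalo (NDDB_SH_1), 3 snoRNA genes lie inside TAF1D.

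No listed gene held more than 3 tested H/ACA genes on its own strand, and 4 held 3 each. In ENSBTAG00000048228 lie SNORA44, SNORA16 and SNORA61, the trio that the noncoding host SNHG12 carries in human. SNORA44 (chr2:125436795-125436925) had 106, 125 and 107 counts against 43, 46 and 49 (log2 fold change -1.12, SE 0.21, adjusted p = 0.000886). Its host went the other way, with 1353, 1590 and 1342 counts against 1571, 1736 and 1847 (log2 fold change 0.44, SE 0.08, adjusted p = 0.000545, short of the fold threshold). Per 1000 host counts SNORA44 had 78.9 ± 0.735 in the GM samples and 26.8 ± 0.495 in the DM samples (SD, n = 3 each), with no overlap. SNORA16 of this host had 32, 40 and 43 counts against 17, 8 and 22 (log2 fold change -1.12, adjusted p = 0.0353), a call lost by DESeq2 (adjusted p = 0.0544) and without GM replicate 2, GM replicate 3, DM replicate 1 or DM replicate 2. SNORA61 had 2, 1 and 3 counts against 0, 1 and 5, too few to show a difference.

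The paralogous helicase genes EIF4A1 and EIF4A2, which encode eIF4A of translation initiation, each hold 3 members but moved differently. EIF4A1 was called lower (log2 fold change -1.16, SE 0.06, adjusted p = 5.7e-08) and EIF4A2 had a log2 fold change of 0.29 (SE 0.09, adjusted p = 0.0148). In EIF4A1, a copy of SNORA48 (chr19:27918316-27918460) had 90, 54 and 67 counts against 34, 37 and 37, a log2 fold change of -0.79 that passed the p threshold but not the fold threshold (SE 0.28, adjusted p = 0.0275). The other SNORA48 copy in it had a log2 fold change of -0.66 (SE 0.35, adjusted p = 0.12), and SNORA67 one of -0.20 (SE 0.50, adjusted p = 0.75). In EIF4A2, SNORA63, also known as E3, had 34, 21 and 19 counts against 14, 12 and 11 (log2 fold change -0.81, SE 0.41, adjusted p = 0.11). SNORA4 in it had a log2 fold change of -1.10 (SE 0.55, adjusted p = 0.104) and SNORA81 one of -0.70 (SE 0.40, adjusted p = 0.157). No member of either host was called, and differences between the members of the 2 hosts were not tested.

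KANSL2, a subunit of a histone acetyltransferase complex, holds 3 copies of SNORA2 and had a log2 fold change of 0.06 (SE 0.06, adjusted p = 0.459). One copy (chr5:31283918-31284056) had 22, 13 and 23 counts against 3, 2 and 2 (log2 fold change -2.82, SE 0.58, adjusted p = 0.0015). A second copy had 20, 13 and 16 counts against 5, 11 and 2 (log2 fold change -1.26, SE 0.59, adjusted p = 0.0878), and it was called without DM replicate 2 (log2 fold change -1.98, adjusted p = 0.0293). The third had 4, 9 and 4 against 3, 3 and 4 (log2 fold change -0.57, SE 0.67, adjusted p = 0.481). The intervals of the 3 copies are wide, and differences between them were not tested.

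**Figure D4:**
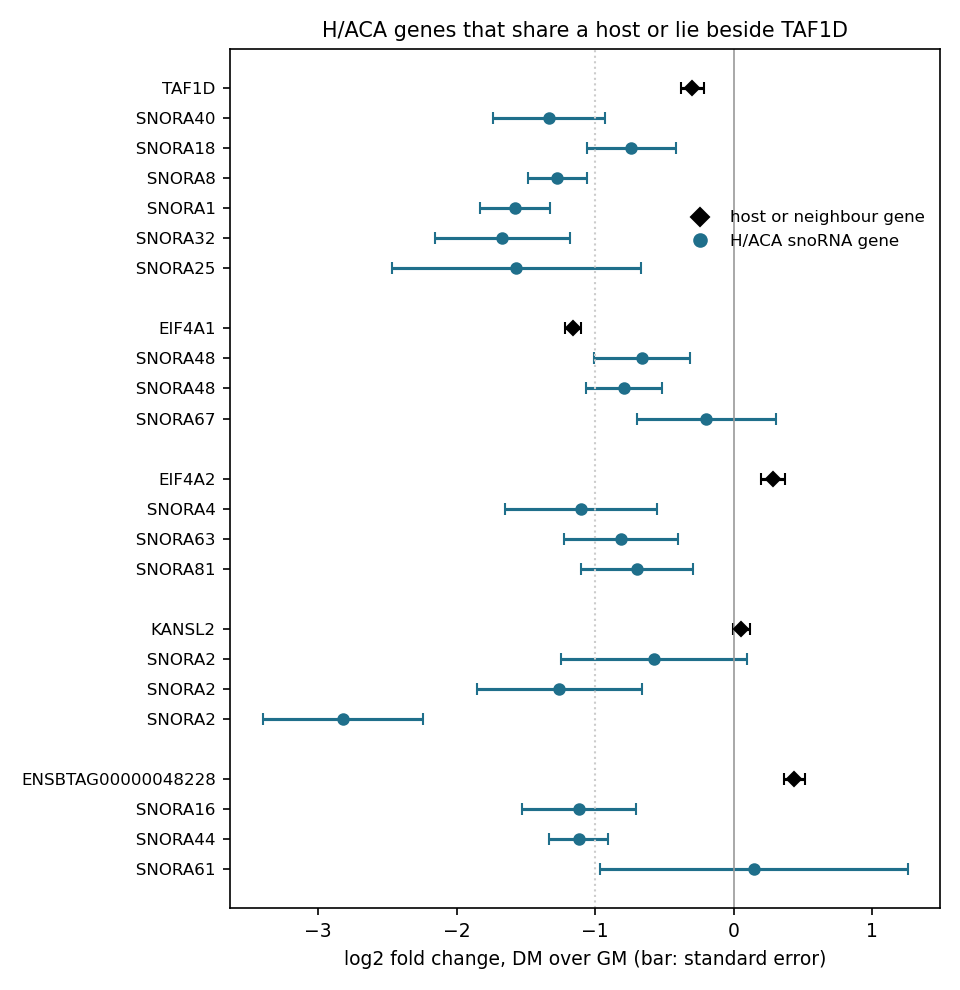
Log2 fold change (DM over GM) with its standard error for TAF1D and the 6 H/ACA genes beside it, and for the 4 hosts that hold 3 tested H/ACA genes each with their members in order of position. Diamonds are host or neighbour genes, circles are H/ACA genes, and the dotted line marks -1. Members sit left of TAF1D, EIF4A2 and KANSL2, and right of EIF4A1.

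Across all hosts, most members had a lower log2 fold change than the gene that holds them. A host, taken as the shortest listed gene around a member on its strand, was found for 66 of the 104 tested genes, in 54 hosts. By edgeR, and by DESeq2 as well, 9 of these 54 hosts were called lower and 0 higher. Among all tested genes, edgeR called 10.3% lower and 15.0% higher. At an unadjusted p below 0.05 in edgeR 25 hosts were lower and 16 higher, with no share of all genes taken. The median host log2 fold change was -0.14 against -1.03 for the 66 members. A member lay below its host in log2 fold change in 50 of 66 pairs, with a median difference of -0.95. Called lower were 13 of the 55 members in hosts that were not called (23.6%) and 3 of the 11 in hosts called lower (27.3%). Of these 16 members, 9 lay in hosts with a log2 fold change above 0. Of all 54 hosts 23 were above 0, but some hosts hold several members, so this is no share of members. The share of all 66 members that lay in such hosts was not taken. Across the 66 pairs, which share libraries and in part hosts, Pearson's r between the fold changes of member and host was 0.15. Over the 141 listed H/ACA genes with a host, members summed to 1396, 1397 and 1404 counts in GM samples, beside 1272874, 1326237 and 1204600 counts of their hosts. In DM samples they summed to 661, 660 and 738, beside 1069781, 1149012 and 1128469 host counts. The difference in the log2 ratio of members to hosts was -0.85, with no overlap between groups (exact permutation test, two-sided, p = 0.1, the smallest possible).

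SNORA62, or E2, has 2 tested copies in the ribosomal protein gene RPSA, a host that was not called. One copy was not called. Per 1000 host counts it had 0.0356 ± 0.0240 in GM samples and 0.0102 ± 0.00414 in DM samples (SD, n = 3 each), with overlap. The other copy (chr22:12730755-12730905) fell. It had 53, 50 and 33 counts against 11, 9 and 10 (log2 fold change -1.99, SE 0.36, adjusted p = 0.000643), while RPSA had a log2 fold change of 0.18 (SE 0.07, adjusted p = 0.0519). SNORA20 and TCP1 were the reverse: TCP1 was called lower (log2 fold change -1.09, SE 0.06, adjusted p = 9.0e-08), and SNORA20 per 1000 TCP1 counts was 3.09 ± 0.594 in GM samples and 8.39 ± 1.83 in DM samples (SD, n = 3 each), 2.71-fold higher in DM samples with no overlap. In NOP56, itself called lower (log2 fold change -1.32, SE 0.07, adjusted p = 9.0e-08), SNORA51 per 1000 host counts was 10.6 ± 2.42 in GM samples and 4.79 ± 0.859 in DM samples. Over the 66 pairs this ratio was lower in every DM sample for 24 (36.4%) and higher in every DM sample for 5 (7.58%). The CPM of all tested genes was lower throughout for 34.3% and higher throughout for 34.5%, which are shares of single genes. No share of such ratios over other pairs of genes was taken, so the 2 sets of shares are not alike. Per length, members were far below their hosts, with a median RPKM ratio of 0.0124 in GM samples and 0.00826 in DM samples. The exceptions, named after their values were seen, were SNORA57 in METTL12, at 3.74 times its host's RPKM in GM samples, and the SNORA8 copy in FAM160A1, at 24.7 times that of a host with 21 to 27 counts per GM sample.

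**Figure D5:**
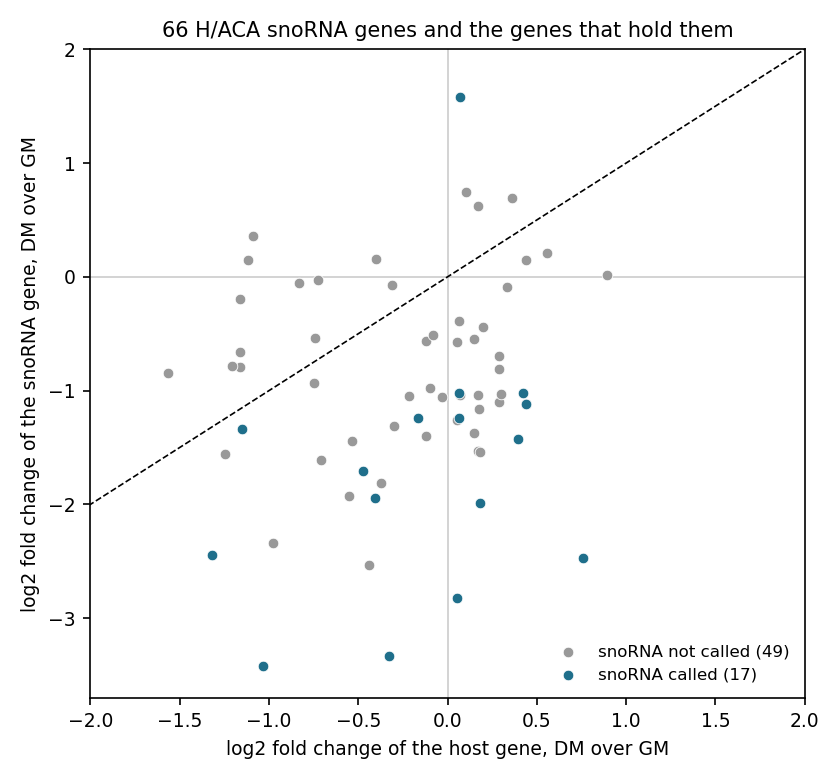
Log2 fold change (DM over GM) of 66 tested H/ACA genes against that of the gene that holds each on the same strand. The dashed line marks equal change, and 50 points lie below it. Coloured points are the 17 called H/ACA genes, 16 of them lower and 1 higher.

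Both called rises were of sparse genes. A copy of SNORA19 in the translation initiation factor gene EIF3A (chr26:39601061-39601190) had 3, 2 and 6 counts in the GM samples and 10, 13 and 7 in the DM samples. The groups were close but apart, and the log2 fold change of 1.58 only just passed (SE 0.63, adjusted p = 0.0496). It did not pass by DESeq2 (adjusted p = 0.138), with a replicate block (adjusted p = 0.0893), with library size alone, with no filter on low counts, or without GM replicate 1, GM replicate 2, DM replicate 1 or DM replicate 2. The other tested SNORA19 copy in EIF3A had 5, 8 and 6 counts against 4, 2 and 2 (log2 fold change -1.04, SE 0.68, adjusted p = 0.206), and EIF3A had a log2 fold change of 0.07 (SE 0.06, adjusted p = 0.322). SNORA43 on chromosome X (chrX:7847685-7847816) had 0, 3 and 1 counts against 7, 11 and 4 (log2 fold change 2.52, SE 0.90, adjusted p = 0.0306), and did not pass by DESeq2 (adjusted p = 0.0757) or without GM replicate 1, GM replicate 3, DM replicate 1 or DM replicate 2. A SNORA43 copy on chromosome 19 was called lower, with 32, 33 and 23 counts against 12, 9 and 5 (log2 fold change -1.56, SE 0.45, adjusted p = 0.0106).

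Copies of a symbol did not always carry like values. SNORA70, listed 65 times, had 5 tested copies, of which 3 were called lower. The copy on chromosome 5 (chr5:113334006-113334140) had 67, 68 and 49 counts against 12, 22 and 18 (log2 fold change -1.64, SE 0.32, adjusted p = 0.00101). The chromosome X copy had 43, 44 and 57 counts against 19, 29 and 15 (log2 fold change -1.03, adjusted p = 0.026), a call lost without GM replicate 3, DM replicate 1 or DM replicate 3. The chromosome 17 copy had 5, 7 and 14 against 1, 1 and 0, a ratio of 11.5 (95% Clopper-Pearson interval 2.89 to 100.3). Those on chromosomes 19 and 11 did not pass, with log2 fold changes of -1.81 (SE 0.88, adjusted p = 0.0955) and 0.30 (SE 0.79, adjusted p = 0.762). Summed over all SNORA70 copies the counts were 142, 145 and 132 against 46, 60 and 42 (log2 fold change -1.33, SE 0.21, adjusted p = 0.000295). With all copies summed by symbol before the fit, an alternative chosen after seeing the data, 25 of 61 symbols were called lower and 0 higher by edgeR (0 higher at an unadjusted p below 0.05), the median was -1.11, and 10.3% of all features were called lower.

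The share of genes called rose with the counts behind them, while the median fold change moved little. Among genes with 10 to 19 counts 2 of 24 were called lower (median log2 fold change -0.86), among those with 20 to 99 counts 9 of 43 (median -1.04), and among those with at least 100 counts 19 of 37 (median -1.03). At the edge of the minimum, SNORA11 on chromosome 3 had 10 counts in all (1, 2 and 1 against 0, 2 and 4) and SNORA38 on chromosome 23 had 9 (1, 0 and 5 against 3, 0 and 0). By length, 5 of 27 genes of up to 130 bases were called lower (median -0.65), 19 of 58 of over 130 and up to 140 bases (median -1.03) and 6 of 19 longer ones (median -1.10). By place, 16 of 66 genes within a host were called lower (median -1.03), as were 14 of 34 outside listed genes (median -1.21) and 0 of 4 on the strand opposite to the only gene around them (median -0.21; 0 by DESeq2, and 0 at an unadjusted p below 0.05). By copy number, 1 of 5 genes with a symbol listed once was called lower (median -1.45), 26 of 75 with 2 to 9 listings (median -1.05) and 3 of 24 with at least 10 (median -0.43). Differences between these classes were not tested.

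Of the genes for the H/ACA particle proteins, DKC1 was called lower and the other 3 were below 0 without reaching the fold threshold. DKC1, the pseudouridine synthase, had 206 ± 2.62 CPM in GM samples and 69.6 ± 5.30 CPM in DM samples (SD, n = 3 each; log2 fold change -1.57, SE 0.07, adjusted p = 2.5e-08). GAR1 and NHP2 had log2 fold changes of -0.96 (SE 0.08, adjusted p = 1.3e-06) and -0.74 (SE 0.08, adjusted p = 1.1e-05), under the fold threshold. NOP10, the smallest of the 4 particle proteins, had a log2 fold change of only -0.19 (SE 0.07, adjusted p = 0.046). The assembly factors NAF1 and SHQ1, which act in making new particles, had log2 fold changes of -0.14 and -0.17 (adjusted p = 0.233 and 0.165). Of 34 genes of H/ACA particle proteins, assembly and RNA processing that were tested, 7 (20.6%, against 10.3% of all tested genes) were called lower and 0 (against 15.0%) higher by edgeR, with the same numbers by DESeq2 (25 and 2 at an unadjusted p below 0.05 in edgeR), with 30 below 0 and a median of -0.50. Besides DKC1 the called genes were RUVBL1 (log2 fold change -1.19) and RUVBL2 (-1.53), ATPases of particle assembly, NOLC1 (-1.58), a nucleolar chaperone of snoRNA particles, TOE1 (-1.06), a nuclear deadenylase, and EXOSC2 (-1.63) and EXOSC8 (-1.10), subunits of the RNA exosome. With no minimum fold change 24 passed lower and 2 higher, the latter being PARN (0.28), which trims the tails of H/ACA RNAs, and ZCCHC7 (0.70), a cofactor of the exosome. The share of all tested genes that passed at this setting, or at an unadjusted p below 0.05, was not taken. The counts of particle and processing genes at these settings therefore cannot be set against those of other genes.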

How the data were processed

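PolyA-selected RNA-seq was analysed for 3 GM and 3 DM samples of buffalo MuSCs. The authors deposited raw counts per gene, RPKM values made from those counts and the Length column, and the same for ncRNA and mRNA transcripts. The study's methods name HISAT2 and the buffalo genome, whereas rows carry cattle Ensembl identifiers, the submitters' processing notes name Bowtie 0.12.2, mm8 and mm9, and no build is given for the Position column, so no sequence was read. Whether the counting used strand is not given in the sources used here. The 3 deposited lists of the authors' comparisons (fold changes, p-values and q-values) and the mRNA table were not used.

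Counts were tested with edgeR 4.0.16 in R 4.3.3 (glmQLFit and glmQLFTest, TMM) on 15576 genes with at least 10 counts in total, adjusted over all of them. Calls needed a change beyond 1 on the log2 scale, either way, and an adjusted p below 0.05. Standard errors came from the F statistic. Sums were compared with an exact two-sided permutation test in scipy 1.17.1. Alternatives were DESeq2 1.42.0, other size factors and filters, a replicate block, the ncRNA table, copies summed and each sample left out. A host was the shortest listed gene, not a small RNA, that holds the member on its strand.

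Named members are the 10 with the highest mean CPM, the 10 largest called falls and all called rises, those beside the count minimum, the largest rise and fall with at least 100 counts, those of the hosts with the most tested members (4 tied) and the tested copies of SNORA70. SNORA25, SNORA32 and SNORA40 beside TAF1D, SNORA57, the SNORA62 copies in RPSA, the SNORA8 copy in FAM160A1 and further copies of SNORA19, SNORA43 and SNORA73 were added with their values known. The members, lists and classes were chosen with earlier results of these data known. Of 36 particle and processing genes, 2 (EXOSC6 and SMN1) were not found.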

Additional observations from a re-analysis of the deposited data

How the results depend on the processing

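Against 30 H/ACA genes lower and 2 higher (32 called), DESeq2 called 21, all lower and all among the 30, with 0 higher. Keeping genes that reached an RPKM of 1 in over 50% of samples gave 19 of 50 called, 18 lower and 1 higher, and the ncRNA table gave 19, 17 lower, where the median was -0.79. Rises numbered 1 with library size alone, 1 without a filter, 0 with filterByExpr and 0 with copies summed. Leaving out a library gave 23 to 30 called, 22 to 28 lower and 0 to 2 higher. Of the 32, 16 were called in each of 12 alternatives, all of them lower, and 12 were when the RPKM rule and the ncRNA table were added. Samples with the same number did not deviate together (correlations of -0.0076, -0.0218 and -0.0105), and the replicate block gave 26 lower and 1 higher. Among particle and processing genes, 26 passed with no minimum fold change, 24 lower and 2 higher, against 7 and 0. No share of all tested genes was taken at that setting. Of 34 named members run under the alternatives, the sign turned for 4, none of them called: SNORA67 (-0.56 to 0.092 with a library left out), SNORA11 on chromosome X (-0.24 to 0.047), SNORA61 (-0.18 to 0.68, and -0.053 with the replicate block) and SNORA70 on chromosome 11 (-0.37 to 0.58). The cause was not tested. The summed differences kept their direction under each alternative run, but 3 against 3 samples cannot give a p below 0.1. Of 24 genes with 10 to 19 counts, 2 were called.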

Other observations

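Other small RNA classes of the gene table did not move as one. Among all tested genes, 10.3% were called lower and 15.0% higher by edgeR. Small Cajal body RNAs (symbols starting with SCARNA) guide the modification of spliceosomal RNAs and in part carry H/ACA boxes. They had 119, 112 and 95 counts in GM samples and 130, 112 and 168 in DM samples. Of their 16 tested genes, 1 was called lower (6.25%) and 2 higher (12.5%), near the shares of all genes, with a median log2 fold change of 0.38. Of 28 tested snoRNA genes outside the SNORA, SNORD and SCARNA symbols, 6 were called lower (21.4%) and 0 higher by edgeR (0 higher by DESeq2 and at an unadjusted p below 0.05, median -0.88). Of 128 C/D genes 40 were called lower (31.25%) and 7 higher (5.47%), with a median of -0.94. Of 20 tested genes typed as misc_RNA, 2 were called lower and 5 higher by edgeR, with a median of 1.31. All misc_RNA genes summed to 1398, 1425 and 1455 counts in GM samples and 1456, 1332 and 10537 in DM samples. The high sum was thus in DM replicate 3 alone, and its cause was not tested. Spliceosomal snRNA genes had 0 of 11 called lower and 1 higher by edgeR (0 lower and 0 higher by DESeq2, 1 lower at an unadjusted p below 0.05; median 0.17), and microRNA genes 10 of 141 lower and 24 higher (median 0.16). Differences between these classes were not tested. The 305 H/ACA genes below 10 counts summed to 39, 53 and 47 counts in GM samples and 24, 35 and 40 in DM samples, which in CPM did not separate the groups (exact permutation test, two-sided, p = 0.3).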
